A study of Mus musculus with 6 samples.

Results

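The 43 genes described here drive or mark passage through the cell division cycle, from the G1 cyclins to the kinases and motors of mitosis. They were taken from a list of names that was chosen with earlier results of these data known. The names were matched by Ensembl identifier to GENCODE M21, and all 43 were found among the 55536 genes listed for each library. The list was split by role into 10 G1 regulators, 11 genes of origin licensing and the replication fork, 4 genes of nucleotide supply and replicated chromatin, and 18 genes of G2 phase and mitosis (G2/M). RNA sequencing was done on SVEC4-10, a mouse endothelial line of lymph node origin that was immortalised with simian virus large T antigen, a protein that binds the retinoblastoma family and p53. The control group held 3 libraries of untreated cells, and the other group held 3 libraries of cells given nattokinase, a fibrin-degrading serine protease from natto, for 24 h. All 6 came from the same line grown in serum-containing medium without any other agent named. No dose is stated in the labels. Levels are FPKM, read counts scaled by exon length and library total, as deposited by the authors. The comparison asks which of these transcripts differed after the exposure.

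In the cell cycle, D-type cyclins with Cdk4 and Cdk6, then E-type cyclins with Cdk2, phosphorylate the retinoblastoma protein and so release E2F factors, which switch on genes for DNA synthesis. The MCM helicase is loaded on origins in G1 by Cdc6 and Cdt1 and fires with Cdc45 and GINS in S phase, while cyclin B with Cdk1, the Polo and Aurora kinases and the anaphase-promoting complex carry the cell through mitosis. Many promoters of the S-phase genes hold E2F motifs, and many promoters of the mitotic genes hold a cell cycle homology region (CHR) near CCAAT boxes bound by NF-Y.

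That division was visible between the G2/M promoters and those of the licensing and fork group, but E2F motifs were few or absent in the other groups. RefSeq (GRCm38.p6) gave a promoter window of 250 bases before to 50 bases after the start for 33 of the 43 genes, and both strands were searched. The CHR motif, TTTGAA or TTTAAA, was in 13 of 14 G2/M promoters (92.9%), against 3 of 9 promoters of the licensing and fork group and 26.0% of all 20554 promoters in the table. TTTGAA alone was in 10 of 14 G2/M promoters, 2 of 9 licensing and fork promoters and 16.9% of all. An E2F motif (TTTCGCGC, TTTGGCGC, TTTCCCGC or TTTGCCGC) was in 6 of 9 licensing and fork promoters (66.7%), in 1 of 14 G2/M promoters and in 2.64% of all promoters. It was in 1 of 6 G1 promoters and in 0 of 4 promoters of the nucleotide and chromatin group. CCAAT was common to the G2/M group and the licensing and fork group, in 13 of 14 and 7 of 9 promoters, against 38.2% of all. Among the 8232 tested genes with a promoter, which are closer to these genes in level, the shares were 18.5% for CHR, 4.68% for E2F and 39.6% for CCAAT. A link between these motifs and the fold changes was not tested, and Mcm4 and Ccne2, which passed the test, had no promoter window. The 150 bases just before the start are printed 5′ to 3′ for 4 genes chosen as examples. Capitals mark CHR, E2F and CCAAT matches on either strand, so that ATTGG is CCAAT read on the other strand. Cdc20, the mitotic gene that fell, lies on the minus strand (chr4:118437344-118437493), with a CHR match at position 18 before its start, between CCAAT boxes at 53 and 8.
Cdc20: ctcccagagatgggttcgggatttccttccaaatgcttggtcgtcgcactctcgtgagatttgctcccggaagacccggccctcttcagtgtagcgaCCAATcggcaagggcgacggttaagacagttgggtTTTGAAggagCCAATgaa
Cdk1, the mitotic kinase whose transcript did not pass the test, is shown for contrast (minus strand, chr10:69352913-69353062) and has CHR matches at 71 and 15, CCAAT boxes at 80 and 48 and an E2F match at 131.
Cdk1: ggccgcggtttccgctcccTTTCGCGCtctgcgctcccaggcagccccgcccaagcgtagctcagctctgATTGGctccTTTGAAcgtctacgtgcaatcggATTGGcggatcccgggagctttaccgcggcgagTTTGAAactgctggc
Mcm6, a helicase subunit on the higher side (minus strand, chr1:128359706-128359855), has E2F matches at 110, 106 and 47, the first 2 overlapping on opposite strands, and CCAAT boxes at 57 and 14.
Mcm6: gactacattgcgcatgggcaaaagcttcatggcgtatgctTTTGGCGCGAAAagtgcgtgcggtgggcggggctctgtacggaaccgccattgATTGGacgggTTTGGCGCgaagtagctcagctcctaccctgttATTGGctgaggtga
Rrm1, which rose (plus strand, chr7:102441545-102441694), has CCAAT boxes at 91 and 45 and none of the E2F or CHR letters in these bases.
Rrm1: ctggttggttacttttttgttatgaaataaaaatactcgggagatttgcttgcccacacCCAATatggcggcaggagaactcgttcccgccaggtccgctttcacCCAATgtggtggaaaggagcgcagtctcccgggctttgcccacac
Cdc20 and Cdk1 thus share the CHR and CCAAT letters although 1 passed the test and the other did not. A match of letters is a description of the sequence, not a bound site.

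The libraries held 15044778 to 18341370 reads assigned to genes, and 18473 to 19391 genes had at least 1 read in a library. The 43 genes were well covered, with 332 to 12924 reads per gene and library, and all passed the filter of at least 1 FPKM in at least 3 libraries. A second component of variation (20.3% of variance) set control 1 apart from the other libraries. Protein-coding genes took 95.4% to 96.7% of reads in the controls and 98.3% to 98.4% in the nattokinase libraries. None of 12 endothelial markers reached the filter, Pecam1 and Cdh5 having at most 3 reads in any library, so the label of the line was not borne out by those genes. Of 4 lymphatic endothelial markers Flt4 and Pdpn were present and Prox1 and Lyve1 had no read in any library. Of 8 fibroblast and mural markers 6 reached the filter, with a summed level of 2067 to 2215 FPKM in the controls and 1849 to 1920 FPKM after nattokinase. Within that list Col3a1 fell (log2 fold change −0.58, limma adjusted p = 7.71e-05), Col1a1 was at −0.18 without a call, and Pdgfrb and Pdgfra were at 0.18 and 0.14 without a call. Pdpn fell (−0.22, limma adjusted p = 0.0272), and the leukocyte marker Cd68 rose from 1.19 to 2.42 FPKM (0.65, limma adjusted p = 0.0094), while Ptprc, Cd3e and Itgam had no read. The part of these shifts in the results on the cell cycle genes was not tested. Whether replicates were grown as separate cultures is not stated, so the p-values cover the spread among these libraries only, and that spread may be technical.

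Nattokinase left most of the cell cycle transcripts close to their control levels. Of the 43 genes 3 rose, Ccne2 of the G1 regulators, Mcm4 of the replicative helicase and Rrm1 of ribonucleotide reductase, and 1 fell, Cdc20 of the anaphase-promoting complex. These 4 make 9.30% of the 43, and over all 10913 genes tested the share called by limma was 8.85%, with 5.61% higher and 3.24% lower, so the share was near the background. The changes were small, between 24.4% higher for Ccne2 and 14.9% lower for Cdc20. For 25 of the 43 genes the log2 fold change on the log2(FPKM + 1) scale was within 0.1 of 0, a range that held 58.6% of all tested genes. The median log2 fold change was 0.01 over the 43 genes and 0.01 over all tested genes. For the 39 genes that were not called, the 95% intervals ran from −0.69 to 0.38, and the widest belonged to Mki67, Cenpf and Cenpe.

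**Figure D1:**
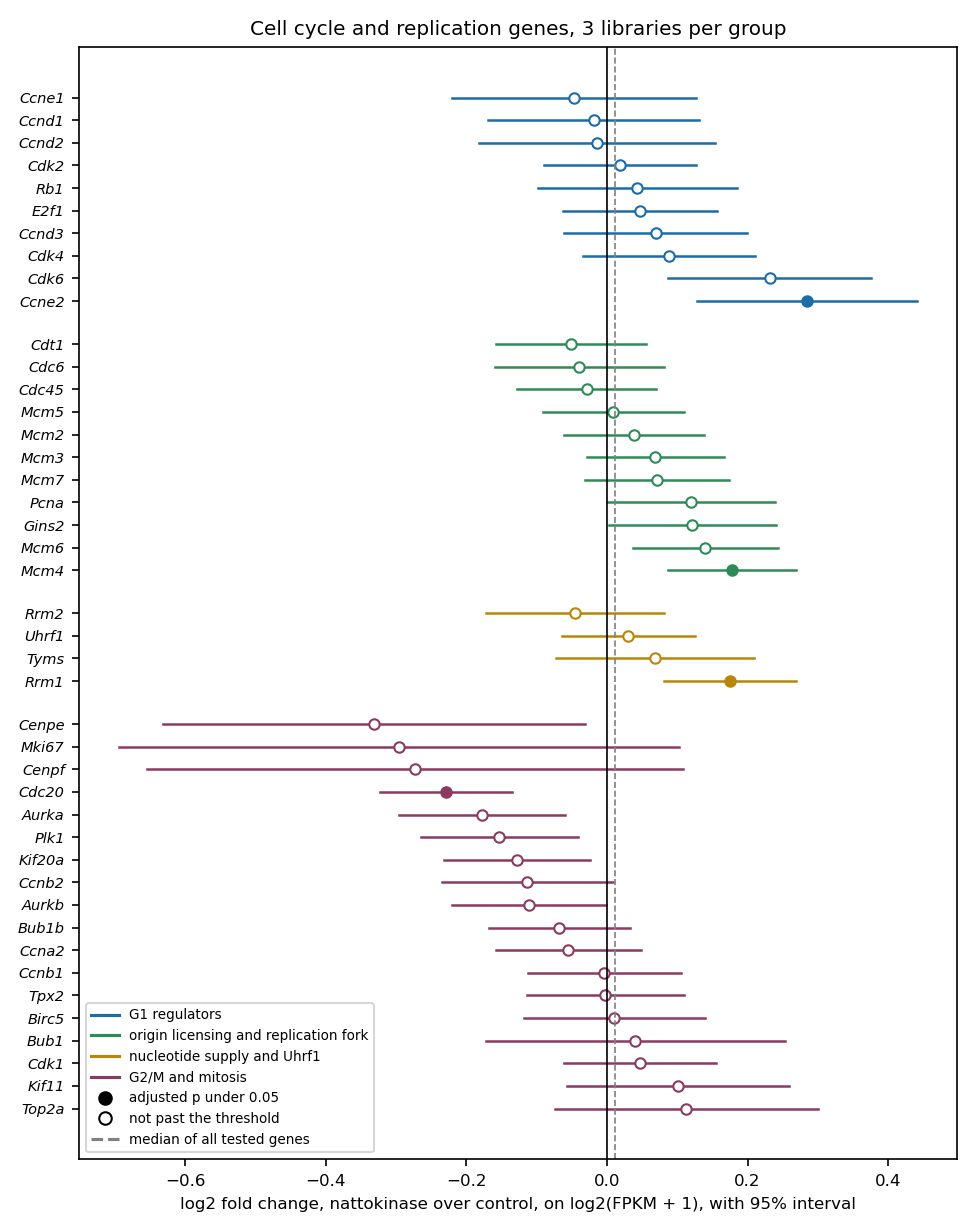
Log2 fold change of each of the 43 genes (x axis, log2(FPKM + 1), nattokinase over control) with its 95% interval from limma, 3 libraries per group, grouped by role and coloured by group. Filled points passed an adjusted p of 0.05 (Ccne2, Mcm4, Rrm1 and Cdc20), the dashed line is the median of all tested genes at 0.01, and most points of the mitotic genes lie left of 0.

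The lean of the fold changes differed by role, although few single genes passed. Among the G1 regulators 7 of 10 fold changes were positive, with a median of 0.04. In the licensing and fork group 8 of 11 were positive (median 0.07), and of the 4 nucleotide and chromatin genes 3 were (median 0.05). Of the 18 G2/M genes 13 were negative, with a median of −0.09. The control and nattokinase libraries did not overlap for 18 of the 43 genes (41.9%), against 28.8% of all tested genes. The 9 that were lower in every nattokinase library were all G2/M genes, where the background share of genes lower in this way was 11.4%. The 9 that were higher were 3 G1, 5 fork and 1 nucleotide gene, where the background share was 17.4%. Among the 136 tested further genes of the cycle described below, 35 did not overlap (25.7%), under the share of all tested genes. Of 38 other origin and replisome genes 5 were higher in this way and 2 lower. Of 48 other mitotic genes 3 were higher and 10 lower. These counts describe the groups, and no test was made over them. Without control 1 the positive values were 6 of 10 in the G1 group (median 0.03), 7 of 11 in the fork group (0.05) and 2 of 4 in the nucleotide group (0.02), and 13 of 18 G2/M values were negative (−0.07). With FPKM rescaled to equal protein-coding totals the medians kept their signs but moved to 0.01, 0.03, 0.02 and −0.12, and over all tested genes the calls went from 612 higher and 354 lower to 478 higher and 497 lower.

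Summed over each group the pattern was similar. The 18 G2/M genes summed to 696, 687 and 702 FPKM in the control libraries and to 675, 647 and 652 FPKM in the nattokinase libraries, so every nattokinase library was below every control. The 11 licensing and fork genes summed to 678, 720 and 713 FPKM in the controls and to 733, 750 and 754 FPKM after nattokinase, again without overlap but in the other direction. The G1 regulators, of which Cdk4 makes up the greater part, summed to 304, 325 and 326 FPKM against 339, 329 and 334 FPKM. These sums are on the deposited scale. With FPKM rescaled to equal protein-coding totals, the control and nattokinase libraries overlapped in the fork sum and in the G1 sum, but not in the mitotic sum. The ratio of the mitotic sum to the fork sum, which any scaling of a whole library leaves unchanged, was 1.03, 0.954 and 0.984 in the controls and 0.921, 0.863 and 0.865 after nattokinase. Its mean was 0.988 ± 0.036 (SD, n = 3) in the controls and 0.883 ± 0.033 (SD, n = 3) in the nattokinase group, and the groups did not overlap. That lack of overlap follows from the sums above, which moved apart in opposite directions, and adds nothing to them. The ratio was not among the planned results. Without the genes that passed the test the ratio was 1.01 ± 0.043 against 0.922 ± 0.038 (SD, n = 3). The groups then barely missed overlapping, with the lowest control at 0.973 and the highest nattokinase library at 0.966. Without genes over 8 kb the ratio was 0.864, 0.842 and 0.864 against 0.798, 0.748 and 0.753. With 3 libraries a group a two-sided exact permutation test cannot go below p = 0.10, and none was made. In bulk RNA, fewer cells in a phase and less RNA per cell in that phase cannot be told apart.

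**Figure D2:**
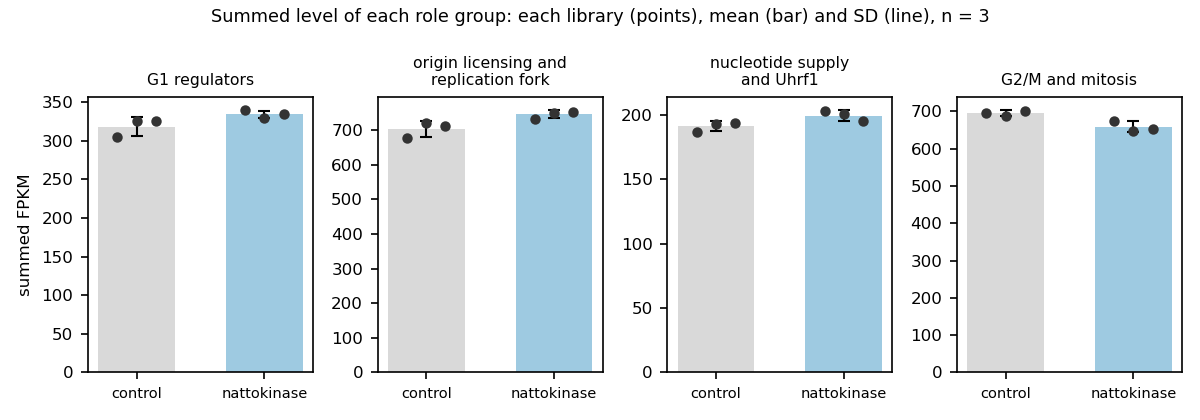
Summed FPKM of each role group (y axis, starting at 0), with each library as a point, the group mean as a bar and the SD as a line, n = 3. The mitotic sum was 695 ± 7.64 FPKM in the controls and 658 ± 14.8 FPKM after nattokinase, and the fork sum was 704 ± 22.2 FPKM and 746 ± 11.4 FPKM.

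Ccne2, which encodes cyclin E2, a partner of Cdk2 at the entry into S phase, was the one G1 regulator that rose. Ccne2 (ENSMUSG00000028212, chromosome 4, 11191351 to 11204779, GRCm38) was at 9.57, 9.13 and 8.45 FPKM in the control libraries and at 11.4, 12.1 and 10.2 FPKM in the nattokinase libraries. The lowest treated library was above the highest control. The log2 fold change was 0.28 ± 0.070 (SE, n = 3 per group), with a limma adjusted p of 0.0334. The call of Ccne2 held without control 1 and without nattokinase 3, and was lost without any of the other 4 libraries (adjusted p up to 0.127), as it was with protein-coding totals (0.0590) and with no filter on low values (0.173). Ccne2 shares 609 of its 3495 exon bases (17.4%) with Ints8 on the opposite strand, whose log2 fold change was 0.20 (limma adjusted p = 0.0843), and because strand use is not stated, reads from such a stretch could belong to either gene.

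Cdk6, a kinase of the D-type cyclins, lay just outside the threshold. Its levels were 12.8, 11.3 and 11.0 FPKM in the controls and 14.7, 13.2 and 13.8 FPKM after nattokinase, with no overlap. The log2 fold change of Cdk6 was 0.23 ± 0.065 (SE, n = 3 per group, limma adjusted p = 0.0552). Without control 1, its highest control, it was 0.29 (adjusted p = 0.0144), while with another library left out the adjusted p went up to 0.169. Cdk6 passed with limma-voom on the recovered reads (0.0144) and with replicate number as a block (0.0484). It did not pass with median-of-ratios scaling (0.0723), protein-coding totals (0.0999) or no filter on low values (0.226). Cdk4, the related kinase and the most abundant transcript of the 43, was at 156, 173 and 175 FPKM in the controls and at 175, 178 and 181 FPKM after nattokinase. Control 1 was the low one, and the other controls nearly met the treated range, with a log2 fold change of 0.09 ± 0.055 (limma adjusted p = 0.383). The D-type cyclins, which couple growth signals to the kinases, were close to their control levels. Ccnd1 had a mean of 7.07 ± 0.29 FPKM in the controls and 6.98 ± 0.60 FPKM after nattokinase (SD, n = 3), and Ccnd2 of 56.7 ± 1.35 and 56.4 ± 6.75 FPKM. Ccnd2 was thus the main D-type cyclin of this line, and its spread was widest after nattokinase, where library 1 was at 64.2 FPKM and the others at 52.1 and 53.0 FPKM. Ccnd3 was at 13.0 ± 0.93 and 13.7 ± 0.36 FPKM. Ccne1, the gene of cyclin E1, was at 9.01 ± 1.09 and 8.66 ± 0.41 FPKM, a log2 fold change of −0.05 with a 95% interval from −0.22 to 0.13. The difference between these 2 cyclins was not tested. Cdk2, Rb1 and E2f1, the kinase, the pocket protein and the activator of the G1/S switch, had log2 fold changes of 0.02, 0.04 and 0.05.

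**Figure D3:**
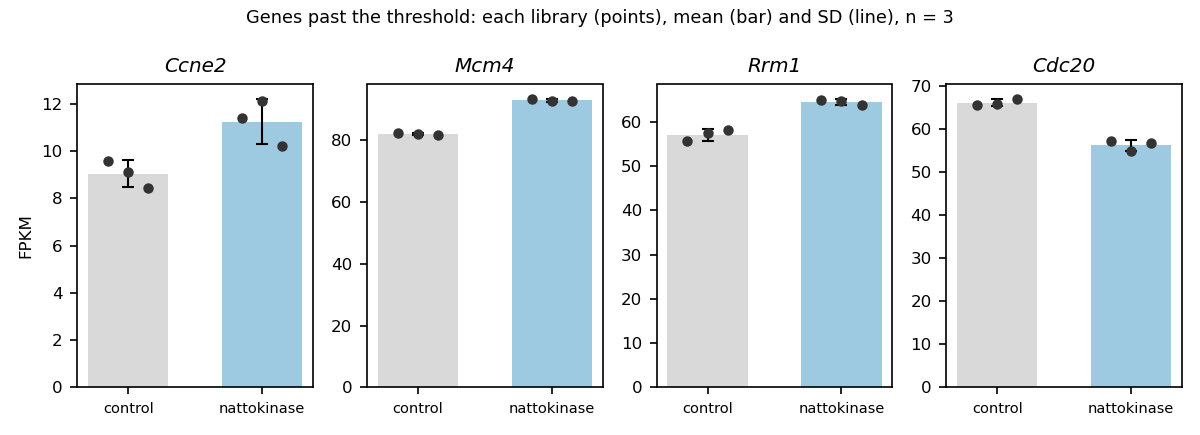
FPKM (y axes, starting at 0) of the 4 genes past an adjusted p of 0.05, with each library as a point, the group mean as a bar and the SD as a line, n = 3. In each panel the control and nattokinase points do not overlap; Mcm4 has the tightest points, 81.5 to 82.3 against 92.5 to 93.2 FPKM.

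Among the genes that build the replication fork, Mcm4, a subunit of the replicative helicase, rose with very little spread. Mcm4 (ENSMUSG00000022673, chromosome 16, 15623897 to 15637400) was at 82.3, 81.9 and 81.5 FPKM in the controls and at 93.2, 92.5 and 92.5 FPKM after nattokinase. Every treated library was about the same distance above the controls, a rise of 13.3% in the mean. The log2 fold change was 0.18 ± 0.041 (SE, n = 3 per group; limma adjusted p = 0.0244). The Mcm4 call held without control 1 (adjusted p = 0.0138) and was lost without any 1 of the other 5 libraries (up to 0.0995). The call of Mcm4 was also lost with protein-coding totals (0.0527), with no filter on low values (0.0657) and with replicate number as a block (0.102). Mcm6, its partner in the helicase ring, was at 85.2, 90.0 and 89.8 FPKM against 94.7, 99.8 and 97.7 FPKM, which did not overlap. The log2 fold change of Mcm6 was 0.14 ± 0.046 with a limma adjusted p of 0.0986. The other 4 subunits of the ring were nearer to 0, at 0.04 for Mcm2, 0.07 for Mcm3, 0.01 for Mcm5 and 0.07 for Mcm7. All 6 subunits had control means between 56.0 and 95.1 FPKM, and the difference between Mcm4 and the rest of the ring was not tested. Gins2, a subunit of the GINS complex, was at 14.5, 15.9 and 16.3 FPKM in the controls and at 17.3, 17.1 and 16.6 FPKM after nattokinase. The highest control was just below the lowest treated library, and the log2 fold change was 0.12 ± 0.053 (limma adjusted p = 0.208). Gins2 shares 67.3% of its exon bases with Gse1 on the other strand, which fell (log2 fold change −0.25, limma adjusted p = 0.034). Pcna, the sliding clamp of the polymerases, was at 139 ± 8.03 FPKM in the controls and 150 ± 3.11 FPKM after nattokinase (SD, n = 3), a log2 fold change of 0.12 with control 1 as the lowest library at 129 FPKM. The helicase loaders Cdc6 and Cdt1 and the helicase activator Cdc45 were on the other side of 0, at −0.04, −0.05 and −0.03. For the 10 genes of this group that were not called the intervals lay between −0.16 and 0.24.

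Rrm1 and Rrm2 encode the large and small subunits of ribonucleotide reductase, which makes deoxynucleotides for DNA synthesis. Rrm1 (ENSMUSG00000030978, chromosome 7, 102441695 to 102469771) was at 55.6, 57.5 and 58.2 FPKM in the controls and at 65.1, 64.8 and 63.8 FPKM in the nattokinase libraries. All 3 treated libraries lay above all controls. The rise was 13.1% in the mean, with a log2 fold change of 0.17 ± 0.042 (SE, n = 3 per group; limma adjusted p = 0.0300). The call of Rrm1 held without control 1 (adjusted p = 0.0290) and was lost without any 1 of the other 5 libraries (up to 0.115). It was also lost with protein-coding totals (0.0590), with no filter on low values (0.0964) and with replicate number as a block (0.104). Rrm2 was at 52.1, 52.6 and 54.2 FPKM against 54.9, 51.9 and 47.4 FPKM, so the treated libraries lay on both sides of the controls. The log2 fold change of Rrm2 was −0.05 ± 0.057 (limma adjusted p = 0.701). Tyms, thymidylate synthase, was at 20.9, 23.7 and 24.9 FPKM and at 24.6, 24.6 and 23.6 FPKM. Its groups overlapped, with a log2 fold change of 0.07 ± 0.063 (limma adjusted p = 0.577). Uhrf1, which helps copy DNA methylation onto the new strand, was at 58.2 ± 1.17 and 59.5 ± 1.05 FPKM (SD, n = 3).

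Cdc20 activates the anaphase-promoting complex, the ubiquitin ligase that ends metaphase, and it was the one G2/M gene that fell. Cdc20 (ENSMUSG00000006398, chromosome 4, 118432901 to 118437352) was at 65.5, 65.8 and 66.9 FPKM in the control libraries and at 57.2, 54.8 and 56.7 FPKM in the nattokinase libraries. The gap between the groups was wider than the range within either. Cdc20 fell by 14.9% in the mean, with a log2 fold change of −0.23 ± 0.042 (SE, n = 3 per group; limma adjusted p = 0.0083). Only the omission of nattokinase 2 among the 6 libraries ended the call of Cdc20 (adjusted p = 0.0527), and with no filter on low values it stood at 0.0425. The overlap of Cdc20 with Elovl1 covers 53 exon bases (2.84%).

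Aurka and Plk1, the Aurora A and Polo-like kinases that build the spindle and drive mitotic entry, were next in order of p. Aurka was at 38.5, 42.8 and 41.1 FPKM in the controls and at 37.6, 35.3 and 35.0 FPKM after nattokinase. The lowest control, control 1, was close to the highest treated library, and the log2 fold change was −0.18 ± 0.053 (limma adjusted p = 0.0695). Plk1 was at 56.2, 59.7 and 60.1 FPKM against 54.7, 50.1 and 53.2 FPKM, again with control 1 nearest to the treated range. Its log2 fold change was −0.15 ± 0.050 (limma adjusted p = 0.0960). Both passed without control 1 (adjusted p = 0.0222 for Aurka and 0.0361 for Plk1), with protein-coding totals (0.0322 and 0.0401) and with limma-voom on the recovered reads (0.0236 and 0.0382). With another library left out their adjusted p went up to 0.216 and 0.319, and with no filter on low values it was 0.237 and 0.277. The limma-voom call rate over all tested genes was 11.4%, the limma rate without control 1 was 11.2%, and with protein-coding totals 8.93%. Kif20a, a cytokinesis motor, was at 38.7 ± 1.25 FPKM in the controls and 35.3 ± 1.09 FPKM after nattokinase (SD, n = 3), a log2 fold change of −0.13. The groups of Kif20a did not overlap, and 29.3% of its exon bases are shared with Cdc23 on the other strand. Ccnb2, Aurkb and Bub1b, encoding a mitotic cyclin, the Aurora B kinase and a spindle checkpoint protein, also had groups that did not overlap, with log2 fold changes of −0.11, −0.11 and −0.07.

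The mitotic genes not yet named, apart from Cenpe, Mki67 and Cenpf, had log2 fold changes near 0 or above it. Cdk1, the kinase of mitotic entry, was at 61.0 ± 3.06 FPKM in the controls and 63.0 ± 0.80 FPKM after nattokinase (SD, n = 3), with a 95% interval of the log2 fold change from −0.06 to 0.16. Its cyclins Ccnb1 and Ccna2 were at −0.00 and −0.06. Tpx2, an activator of Aurora A, and Birc5, the survivin of the chromosomal passenger complex, were at −0.00 and 0.01, and the checkpoint kinase Bub1 was at 0.04. Kif11, the motor that separates the spindle poles, had 16.0 ± 1.68 and 17.2 ± 0.79 FPKM, and Top2a, the topoisomerase that untangles sister chromatids, had 51.1 ± 6.37 and 55.1 ± 2.55 FPKM. These 2 were the mitotic genes with the highest log2 fold changes, 0.10 and 0.11, and neither was called.

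**Figure D4:**
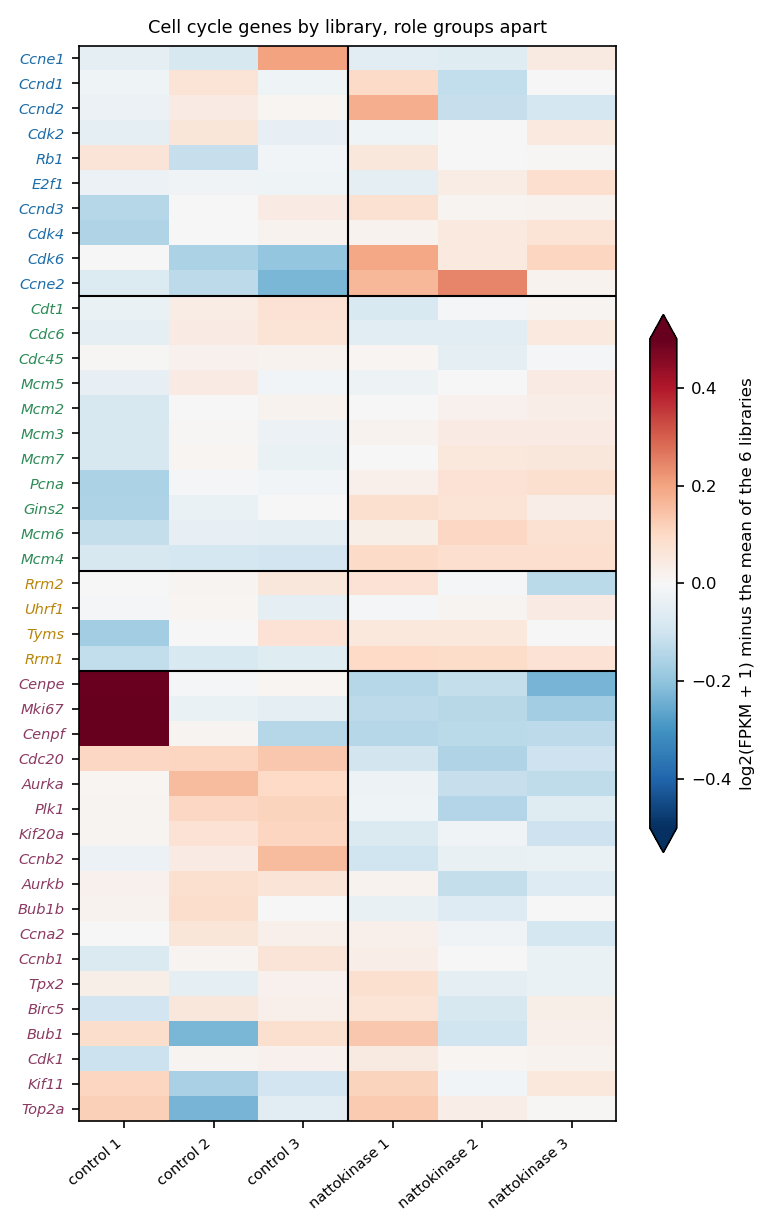
Each gene (rows, named in the colour of its role group) in each of the 6 libraries (columns), as log2(FPKM + 1) minus the mean over the 6; red is above and blue below that mean, and colours stop at the ends of the bar. Cdc20 is red in the 3 control columns and blue in the nattokinase columns, Mcm4 and Rrm1 the reverse, and Cenpe, Mki67 and Cenpf are high in control 1 alone.

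The fold changes with the most negative values belonged to Cenpe (−0.33), Mki67 (−0.30) and Cenpf (−0.27), and much of their size rested on control 1. Every nattokinase library was also below the other controls for Cenpe and Mki67, while the groups of Cenpf overlapped. Mki67, which encodes the proliferation marker Ki-67, was at 35.2 FPKM in control 1, at 23.6 and 23.4 FPKM in the other controls, and at 22.0, 21.9 and 21.3 FPKM after nattokinase. Cenpe, a kinetochore motor, was at 11.4 FPKM in control 1, at 7.76 and 7.86 FPKM in the other controls, and at 6.96, 7.09 and 6.49 FPKM after nattokinase. Cenpf, a large kinetochore protein, was at 6.12 FPKM in control 1, at 3.96 and 3.45 FPKM in the other controls and at 3.45, 3.47 and 3.48 FPKM after nattokinase. Control 1 was far above the other 5 libraries for each, and none was called (limma adjusted p = 0.347 for Mki67, 0.175 for Cenpe and 0.373 for Cenpf). Without control 1 the log2 fold changes were −0.11 for Mki67, −0.17 for Cenpe and −0.07 for Cenpf, with adjusted p of 0.137, 0.102 and 0.542.

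These 3 genes have long transcripts, and control 1 differed from the other controls by transcript length across all tested genes. The median of its log2 level minus that of the other controls went from −0.15 for 703 genes with up to 1 kb of exons to 0.08 for 1922 genes over 8 kb. Of the 8 cell cycle genes over 8 kb, 5 were higher in control 1 than in the mean of the other controls, and of the 35 shorter ones 28 were lower. The gaps of Cenpf (0.60), Mki67 (0.56) and Cenpe (0.49) went beyond the median of their length class, at percentiles 99.5, 99.5 and 99.2 of all tested genes. Top2a (0.27), Kif11 (0.23) and Cdk6 (0.18) leaned the same way. With each library's trend on exon length removed, an alternative chosen after seeing the data, Cdk6 (limma adjusted p = 0.0385), Aurka (0.0202), Plk1 (0.0297) and Kif20a (0.0461) passed the threshold, Ccne2, Mcm4 and Cdc20 stayed past it, and Rrm1 did not (0.0708). That alternative called more genes in general, 702 higher and 552 lower, or 11.5% of all tested. Under it Mki67, Cenpe and Cenpf had log2 fold changes of −0.33, −0.36 and −0.30, without a call (limma adjusted p = 0.222, 0.0896 and 0.177). The part of transcript length in their control 1 values was not tested.

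**Figure D5:**
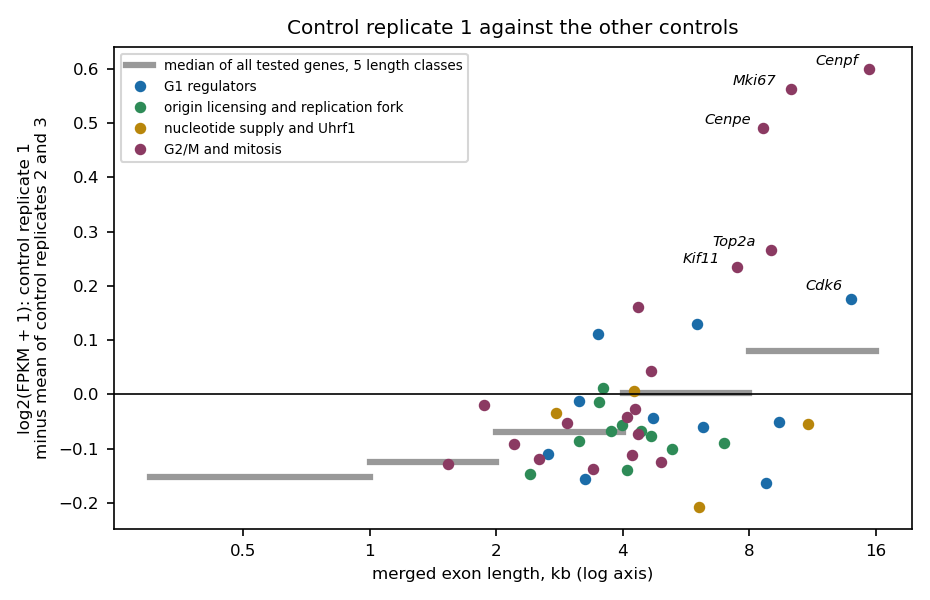
Log2(FPKM + 1) in control 1 minus the mean of controls 2 and 3 (y axis) against merged exon length in kb (log x axis) for the 43 genes, coloured by role, with grey bars for the median of all tested genes in 5 length classes. The bars climb from −0.15 for the shortest genes to 0.08 for the longest, and Cenpf, Mki67 and Cenpe stand far above them.

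Other genes of the cycle were taken from lists by function, 137 genes in all besides the histones, of which 136 passed the filter. Of these 1 rose and 3 fell, 2.94% against the background of 8.85%. Rpa1, the large subunit of the single-strand DNA-binding protein RPA, had the firmest change, from 78.8 ± 2.95 FPKM in the controls to 64.1 ± 0.62 FPKM after nattokinase (SD, n = 3). The log2 fold change of Rpa1 was −0.29 ± 0.045 (SE; limma adjusted p = 0.0033), and the call held without each library in turn (at most 0.0212). It was the one call among 38 other origin and replisome genes, where Orc1, the origin recognition subunit (0.24, adjusted p = 0.0524), Gmnn, the inhibitor of Cdt1 (0.18, 0.0558), and Chaf1b of the histone chaperone CAF-1 (0.15, 0.110) lay on the higher side in limma. Of the other nucleotide and S-phase genes, Hells, a chromatin remodeller, Usp1, a deubiquitinase, and Slbp, which binds histone mRNA, had log2 fold changes of 0.17, 0.10 and 0.07 without a call.

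Among 48 other mitotic genes 1 was called, Nek2, a centrosomal kinase, which fell from 16.9 ± 0.50 to 14.8 ± 0.30 FPKM (log2 fold change −0.17, limma adjusted p = 0.0459). The call of Nek2 held without control 1 (0.0279) and was lost without any 1 of the other 5 libraries (0.0780 to 0.175). Spc24 of the NDC80 complex, the separase gene Espl1 and the centromeric histone gene Cenpa were at −0.17, −0.17 and −0.21 with limma adjusted p of 0.0651, 0.0695 and 0.0711. The median over this list was −0.02, with 29 of 48 values negative, so the lean seen in the 18 G2/M genes was smaller here. That difference was not tested. Fzr1, also known as Cdh1, the other activator of the anaphase-promoting complex, fell from 18.0 ± 0.48 to 15.9 ± 0.25 FPKM (log2 fold change −0.17, limma adjusted p = 0.0474), as the one call of 16 kinase activators and ubiquitin ligase genes. The call of Fzr1 likewise held without control 1 (0.0370) and was lost without any 1 of the others (0.111 to 0.162). Ccnh, Fbxw7 and Anapc5 of that list were at 0.18, −0.16 and −0.09 and were not called. None of 8 tested CDK inhibitors and pocket proteins was called, and their limma adjusted p was at least 0.138, the lowest being that of Cdkn2d (log2 fold change −0.22). Rbl1, Cdkn2b and Cdkn1a, a target of p53, were at 0.08, 0.07 and −0.10. None of 16 E2F, DREAM, B-Myb and FoxM1 factors was called either, and Lin54, E2f6, Lin37 and Lin9 had the smallest p in limma, at 0.18, 0.14, −0.13 and 0.12.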

How the data were processed

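RNA from 6 samples was analysed, grouped and numbered by their titles. Per the labels, total RNA was made into standard Illumina libraries; strand and poly(A) selection are not stated. The submitters' processing notes name FastQC, MultiQC, CASAVA, DESeq2 1.22.1, HISAT2 2.1.0, Trimmomatic 0.38 and featureCounts 1.6.0 without role or order, and the human build GRCh38, although the identifiers are from mouse. The authors deposited 1 column per library of FPKM, a unit found from the values: multiplied by merged exon length (GENCODE M21, GRCm38), 100% of values above 0 were whole multiples of a step particular to the library, to within 0.05 of a read. Reads assigned were recovered from these steps; whether reads or fragments were counted is not stated. The files held 0 columns of other samples.

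The 10913 genes reaching 1 FPKM in 3 or more libraries were compared as log2(FPKM + 1) in limma 3.58.1 (R 4.3.3), using a two-sided moderated test with trended, robust variance and a Benjamini-Hochberg threshold of 0.05. Fold changes on this scale understate those of low genes. The members, gene lists and tests were chosen with earlier results of these data known. Values by library are given for genes past the threshold and for the 3 genes with the smallest p in each role group, and of each further list up to 4 genes are named by p; Mki67, Cenpe, Cenpf and the overlapping neighbours were chosen after their values were seen. One gene that this rule takes is not reported here. Exons of 16 of the 43 genes overlap another gene. In data simulated for this comparison over 10913 genes, limma recovered 55.1% of genes changed 1.25-fold, 96.0% at 1.5-fold and 98.0% at 2-fold, and 10 of 183 calls (5.46%) were false; the 4 called changes among the 43 genes were smaller than the smallest simulated. Within groups r of log2 values was 0.992 to 0.995, and replicates differed by more than counting error. The alternatives were pseudocounts of 0.5 and 0.1, other filters, median-of-ratios and protein-coding scaling, limma-voom on the recovered reads, a replicate block and leaving out each library.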

Additional observations from a re-analysis of the deposited data

How the results depend on the processing

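Of 645 fold changes of the 43 genes under 15 alternatives, 607 kept their side of the threshold, 24 lost a call and 14 gained one; no called gene changed sign, 36 values of 13 uncalled genes did, and 35 genes were uncalled throughout. Without a filter on low values, which adds genes to the adjustment, 221 genes were higher and 109 lower, with 0 of the 43 genes higher (0 G1, 0 fork, 0 nucleotide) and 0 higher and 1 lower in the further lists; a filter of 0.5 FPKM gave 1 lower there. With protein-coding totals 0 of the 43 were higher (0 in each role group) and 3 lower, all G2/M, 8 genes of the further lists were lower, and the medians of the G1 and fork groups were 0.014 and 0.034. Median-of-ratios scaling gave 2 lower among the 43, both G2/M. Limma-voom gave 2 G1 genes higher, 3 G2/M genes lower (3 of the 43) and 6 lower in the further lists. With the exon length trend removed, 552 genes, 4 of the 43 (4 G2/M) and 8 genes of the further lists were lower, 2 G1, 0 nucleotide and 2 further genes higher. Leaving out 1 library gave 330 to 726 genes higher and 193 to 481 lower, 0 to 4 of the 43 higher and 0 to 3 lower (G1 0 to 2, fork 0 to 1, nucleotide 0 to 1, G2/M lower 0 to 3), and 0 to 4 higher and 1 to 7 lower in the further lists; beyond fewer samples, the cause was not tested. The replicate numbers share only a number: deviations of same-numbered libraries correlated at −0.09, −0.04 and −0.06, and 0 of 6 libraries correlated best with their own number. The replicate block gave 439 genes higher and 249 lower, 2 G1, 0 fork and 0 nucleotide genes higher, and 0 higher and 1 lower in the further lists. Depth was at least 332 reads per gene and library for the 43 genes.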

Other observations

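The clustered histone genes, whose transcripts rise in S phase and mostly lack a poly(A) tail, were low in these libraries: 17 of 70 passed the filter. Hist1h2bc, a core histone gene, fell from 19.5 ± 0.99 FPKM in the controls to 16.1 ± 0.47 FPKM after nattokinase (SD, n = 3; log2 fold change −0.26, limma adjusted p = 0.0124). The call of Hist1h2bc was lost without control 2 (0.0548) and without nattokinase 2 (0.0594). Hist1h1b and Hist1h1e, linker histone genes, passed the filter only through the controls, so a difference was built into their being tested, and their levels are given as a description. Hist1h1b was at 1.73 ± 0.58 FPKM in the controls and 0.426 ± 0.20 FPKM after nattokinase, and Hist1h1e at 1.77 ± 0.67 and 0.541 ± 0.22 FPKM (SD, n = 3). Hist1h2bg was at −0.33 without a call. These genes have near-identical copies whose reads the counting could split, so values of single copies are uncertain.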
